A study of Homo sapiens with 72 samples.

Results

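The 40 genes described here encode enzymes that remove or add acetyl groups on lysines of histones and other proteins, or that remove methyl groups from histone lysines. They were taken as a listed set of symbols from the 62266 genes of the count table and fall into 7 classes: 4 class I deacetylases, 4 class IIa deacetylases, 3 class IIb and IV deacetylases, 7 sirtuins, 9 acetyltransferases, 2 flavin demethylases and 11 JmjC demethylases. Total RNA-seq was run on 72 libraries from 3 human epithelial cell lines, each carried through 8 conditions with 3 libraries per condition. The lines were ectocervical (Ecto, Ect/E6E7), endocervical (Endo, End1/E6E7) and vaginal (VK2, VK2/E6E7) cells. All were immortalized with papillomavirus E6 and E7 genes, so every group carries these oncogenes, and each tissue is represented by a single line. Cells were pretreated for 4 h with spermine (SPM, 400 µM), spermidine (SPD, 400 µM), putrescine (PUT, 4 mM) or nothing (NT). They were then cultured for 24 h with live Gardnerella vaginalis (GV, 10000000 CFU per well), an anaerobe of bacterial vaginosis, or without bacteria (noGV).

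Deacetylases of classes I, II and IV use zinc and many act in repressor complexes, whereas sirtuins are deacetylases that consume NAD and so depend on the metabolic state of the cell. Acetyltransferases such as EP300 and its paralog CREBBP are co-activators that load acetyl groups at enhancers and promoters. The flavin demethylases KDM1A and KDM1B, and the JmjC demethylases, which use iron and oxoglutarate, erase methyl marks that either silence genes or mark active ones. Of the polyamines used, putrescine is the simplest, a diamine. Adding an aminopropyl group gives spermidine, and adding another gives spermine. One deacetylase of the set, HDAC10, is known for deacetylating acetylated spermidine.

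All 40 genes passed the filter on low counts in every fit. Libraries held 20152143 to 42767996 counts (median 31872238.5). Levels are given as CPM, counts scaled to a common library size over all 72 libraries, fold changes are on the log2 scale with their standard error (SE), and a gene was called changed at an adjusted p under 0.05 in edgeR's quasi-likelihood test, with Benjamini-Hochberg adjustment over all genes tested. Nothing in the sample descriptions says whether the 3 libraries of a group came from separate cultures, so p-values measure only the spread between these libraries, which may be technical. The 12 epithelial markers examined were all above 1 CPM in each line and summed to 8197 to 48580 CPM, whereas 6 fibroblast, 6 leukocyte and 5 endothelial markers summed to at most 69.7, 30.8 and 3.93 CPM. The third Ecto SPD+noGV library stood apart from its group, at a root mean square distance of 0.373 on the log2 scale from the group mean, while every other library lay at 0.24 to 0.308. Because the samples are bulk, fewer cells expressing a gene and less RNA per cell cannot be told apart.

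In cells with neither polyamine nor bacteria (NT+noGV), HDAC1, a catalytic subunit of the Sin3, NuRD and CoREST repressor complexes, had the highest level per kilobase of transcript in each line, at 64.5 CPM per kb for Ecto, 97.2 for Endo and 82.6 for VK2 cells. KDM1A, the demethylase of CoREST, had 56.5 CPM per kb for Ecto, 53.3 for Endo and 61.2 for VK2 cells. SIRT4, a mitochondrial sirtuin, was the lowest, at 0.507 CPM per kb for Ecto, 0.319 for Endo and 0.560 for VK2 cells. The 3 lines differed in most of the set. Between Ecto and Endo 28 genes differed (70%, where 63.9% of all 21195 genes did), between Ecto and VK2 30 differed (75%, where 63.8% of all genes did) and between Endo and VK2 30 differed (75%, where 59.6% of all genes did). Differences of at least 2-fold were found for 6, 5 and 2 members in these comparisons. The share of all genes that differed at least 2-fold was not counted, so these counts have no background.

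**Figure D1:**
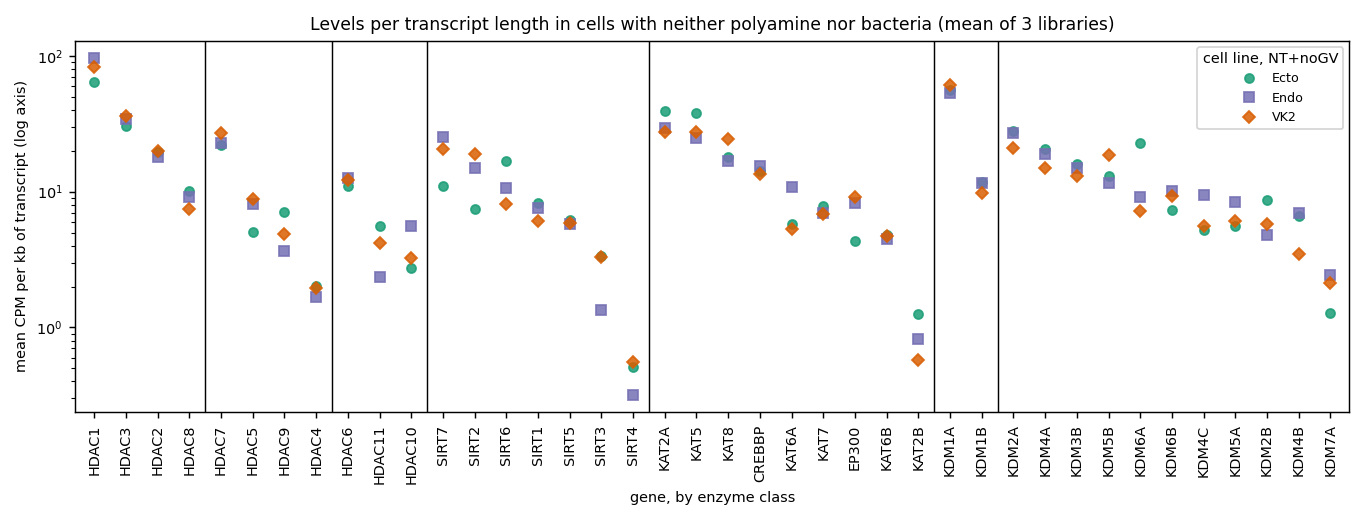
Mean level of each of the 40 genes in NT+noGV cells (3 libraries per line), in CPM per kilobase of transcript on a log axis, grouped by enzyme class. HDAC1 lies highest and SIRT4 lowest, and KDM6A is higher in Ecto cells, at 22.9 CPM per kb, than in Endo cells, at 9.09, and VK2 cells, at 7.18.

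KDM6A, which erases the Polycomb methyl mark on histone H3, showed the largest gap between lines. Its log2 difference was 1.34 ± 0.07 for Ecto over Endo cells (adjusted p = 1.77e-25) and 1.68 ± 0.07 for Ecto over VK2 cells (adjusted p = 7.41e-30). EP300 was lower in Ecto than in VK2 cells (log2 difference -1.07 ± 0.08) and KAT2B, the PCAF acetyltransferase, was higher (1.12 ± 0.12). Among sirtuins, SIRT2, a mainly cytoplasmic tubulin deacetylase, was lower in Ecto cells than in Endo (-1.02 ± 0.07) and VK2 cells (-1.35 ± 0.07). SIRT7, a nucleolar deacetylase, was lower in Ecto than in Endo cells (-1.20 ± 0.06), while SIRT6 was higher in Ecto than in VK2 cells (1.07 ± 0.06). SIRT3, the main mitochondrial deacetylase, was higher in Ecto than in Endo cells (1.32 ± 0.09) and lower in Endo than in VK2 cells (-1.29 ± 0.09). HDAC11 was higher (1.26 ± 0.08) and HDAC10 lower (-1.02 ± 0.10) in Ecto than in Endo cells, and KAT6A was higher in Endo than in VK2 cells (1.03 ± 0.08).

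Bacteria without any polyamine (NT+GV vs NT+noGV) lowered more of these genes than it raised in Ecto and Endo cells. In Ecto cells 4 of the 40 rose and 14 fell (10% and 35%), where 20.9% of all 19459 genes rose and 23.7% fell. In Endo cells 7 rose and 16 fell (17.5% and 40%), where 25.7% of 18741 genes rose and 28.7% fell. In VK2 cells 4 rose and 6 fell (10% and 15%), where 13.9% of 18474 genes rose and 12.5% fell, and the count of VK2 calls was 6 in place of 10 without NT+noGV replicate 3. The medians of the 40 log2 fold changes were -0.12 for Ecto, -0.07 for Endo and -0.01 for VK2 cells. Of the 9 acetyltransferases, 5 fell in Ecto and 6 in Endo cells, against 1 in VK2 cells, and 1, 1 and 0 rose. No member rose in all 3 lines, where 4.81% of the 16963 genes tested in all 3 did, and 3 (7.5%) fell in all 3, where 6.34% of those genes did. These were SIRT5, a mitochondrial desuccinylase, KDM4A, a JmjC demethylase, and KAT8, the acetyltransferase of the MSL and NSL complexes. SIRT5 fell by 0.51 ± 0.07 (Ecto), 0.57 ± 0.06 (Endo) and 0.28 ± 0.06 (VK2), and KDM4A by 0.22 ± 0.05 (Ecto), 0.56 ± 0.04 (Endo) and 0.17 ± 0.04 (VK2). KAT8 fell by 0.26 ± 0.06 (Ecto), 0.21 ± 0.05 (Endo) and 0.16 ± 0.05 (VK2), and its VK2 call was lost without NT+GV replicate 3 (adjusted p = 0.172), NT+noGV replicate 1 (0.1) or NT+noGV replicate 2 (0.083).

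KDM7A, a JmjC demethylase with a methyl-lysine reader domain, changed most with G. vaginalis alone. The Endo NT+GV libraries held 10.98, 11.1 and 12.4 CPM of KDM7A, against 22.3, 22.6 and 22.1 CPM in Endo NT+noGV libraries. The groups did not overlap, and the log2 fold change was -0.95 ± 0.08 (adjusted p = 1.68e-11). In VK2 cells the NT+GV libraries held 23.95, 20.9 and 22.01 CPM, against 20.7, 19.9 and 18.4 CPM in NT+noGV libraries, a rise of 0.20 ± 0.07 (adjusted p = 0.028) without overlap. That rise was not called without NT+GV replicate 1 (adjusted p = 0.173), NT+noGV replicate 2 (0.0509) or NT+noGV replicate 3 (0.159). In Ecto cells KDM7A had a log2 fold change of -0.15 ± 0.12, which did not pass the test. The difference of the Endo response from the VK2 response was -1.14 ± 0.13 (adjusted p = 1.53e-10).

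Other falls under G. vaginalis alone were likewise uneven between lines. HDAC5, a class IIa deacetylase that shuttles between nucleus and cytoplasm, fell by 0.79 ± 0.05 in Endo and by 0.32 ± 0.06 in Ecto cells, and had a value of -0.07 ± 0.06 in VK2 cells (no call). KAT6B fell by 0.72 ± 0.05 in Endo and by 0.37 ± 0.09 in Ecto cells, beside -0.02 ± 0.06 in VK2 cells (no call). KAT5, the catalytic subunit of the NuA4/TIP60 complex, fell by 0.62 ± 0.06 in Ecto cells. KDM6A held 97.7, 76.4 and 78.3 CPM in Ecto NT+GV libraries, against 138, 135 and 146 CPM in Ecto NT+noGV libraries, and fell by 0.74 ± 0.10 (adjusted p = 4.13e-06) with no overlap. Its values in Endo (-0.08 ± 0.05) and VK2 cells (0.09 ± 0.04) did not pass the test. Among the rises, KAT2B rose by 0.45 ± 0.09 in Ecto and 0.44 ± 0.11 in Endo cells, and KDM6B, a Polycomb-mark demethylase that is inducible in inflammatory macrophages, rose by 0.43 ± 0.07 in Ecto cells. Tested between lines, the response to G. vaginalis differed for 15 members between Ecto and Endo (37.5%, where 28% of all genes did), for 16 between Ecto and VK2 (40%, where 27.5% did) and for 12 between Endo and VK2 cells (30%, where 25.8% did).

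Spermine before G. vaginalis (SPM+GV vs NT+GV) gave the largest rises in the set. In Ecto cells 14 genes rose and 13 fell (35% and 32.5%), where 28.5% of all genes rose and 27.5% fell. In Endo cells 13 rose and 12 fell (32.5% and 30%), where 21.9% of all genes rose and 21.1% fell. In VK2 cells 15 rose and 10 fell (37.5% and 25%), where 27.9% of all genes rose and 30.3% fell. In all 3 lines 11 members (27.5%) rose, where 13.9% of all genes did: HDAC9, SIRT1, SIRT4, EP300, CREBBP, KAT6A, KDM2A, KDM4A, KDM5B, KDM6A and KDM6B. A further 4 (10%) fell in all 3 lines, where 11.8% of all genes did: HDAC5, HDAC6, HDAC11 and SIRT5. Of the 11 JmjC demethylases, 7 rose and 2 fell in Ecto, 6 rose and 1 fell in Endo, and 7 rose and 1 fell in VK2 cells. Of the 3 class IIb and IV deacetylases none rose, and 3, 2 and 2 fell in Ecto, Endo and VK2 cells. Of the 4 class I deacetylases 1 fell in Ecto and in Endo cells and 1 rose in VK2 cells. Acetyltransferases, 9 in all, were mixed: 4 rose and 1 fell in Ecto, 3 rose and 3 fell in Endo, and 3 rose and 4 fell in VK2 cells. Of the 7 sirtuins, 2 rose and 2 fell in Ecto, 3 and 2 in Endo, and 2 and 2 in VK2 cells. Class IIa deacetylases rose for 1, 1 and 2 of 4 and fell for 2, 1 and 1 in these lines. Neither flavin demethylase rose, and 2, 2 and 0 fell. The 12 epithelial markers fell in the same comparison for 8, 7 and 7 genes and rose for 2, 1 and 3, in Ecto, Endo and VK2 cells, and their summed level was 8196 to 8608 CPM in Ecto SPM+GV libraries, against 9879 to 10299 CPM in NT+GV libraries, 21645 to 22063 CPM in Endo SPM+GV against 23666 to 25351 CPM in Endo NT+GV libraries, and 33293 to 33762 CPM in VK2 SPM+GV against 39283 to 43355 CPM in VK2 NT+GV libraries. Their part in the changes of the set was not tested.

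**Figure D2:**
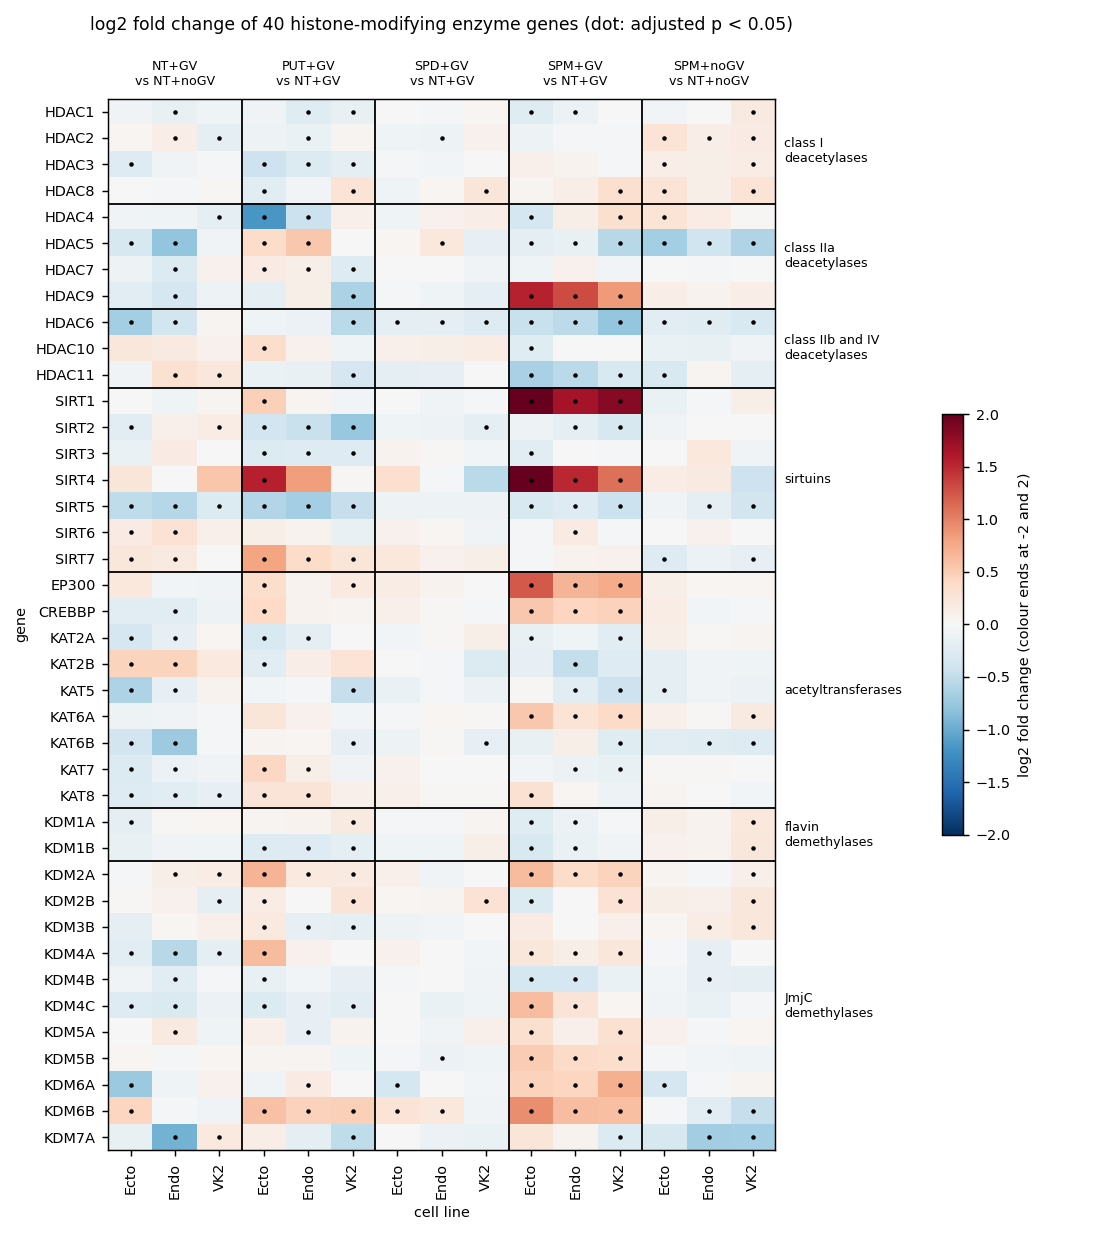
Log2 fold change (colour, ends at -2 and 2) of the 40 genes in 5 comparisons and 3 lines, with a dot where the adjusted p was under 0.05 and rows grouped by enzyme class. SIRT1, SIRT4, HDAC9 and EP300 stand out in the SPM+GV columns, the SPD+GV columns hold few dots, and the same 4 genes carry no dot under spermine without bacteria.

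Under SPM+GV, SIRT1, SIRT4, HDAC9 and EP300 were the 4 members that changed at least 2-fold in any line, and all 4 rose. The shares of all genes that rose or fell at least 2-fold were not counted, so this count has no background. SIRT1 is the nuclear sirtuin that deacetylates histones and transcription factors. In Ecto cells its SPM+GV libraries held 116, 152 and 143 CPM, against 34.4, 33.6 and 33.8 CPM in NT+GV libraries. In Endo cells they held 81.2, 90.95 and 102 CPM, against 28.95, 27.8 and 30.6 CPM with NT+GV. In VK2 cells they held 76.9, 90.2 and 92.8 CPM, against 25.7, 23.1 and 27.5 CPM with NT+GV. Every SPM+GV library exceeded every NT+GV library of its line by more than 2-fold. The log2 fold changes were 2.06 ± 0.09 in Ecto (adjusted p = 1.21e-14), 1.66 ± 0.06 in Endo (adjusted p = 2.96e-18) and 1.82 ± 0.06 in VK2 cells (adjusted p = 3.81e-21).

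HDAC9, a class IIa deacetylase that binds MEF2 factors, also rose in each line. Its Ecto libraries held 152, 181 and 173 CPM with SPM+GV, against 64.7, 60.1 and 55.7 CPM with NT+GV. Endo libraries held 65.5, 68.5 and 75.4 CPM with SPM+GV, against 28.04, 25.9 and 31.2 CPM with NT+GV. VK2 libraries held 68.1, 79.98 and 81.7 CPM with SPM+GV, against 45.5, 42.1 and 44.5 CPM with NT+GV. The groups did not overlap in any line. The log2 fold changes were 1.54 ± 0.09 in Ecto (adjusted p = 5.69e-12), 1.31 ± 0.09 in Endo (adjusted p = 1.18e-10) and 0.86 ± 0.10 in VK2 cells (adjusted p = 3.16e-07).

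SIRT4, which restrains glutamine use in mitochondria, had low counts. The Ecto libraries held 2.88, 3.66 and 3.88 CPM with SPM+GV, against 0.901, 0.774 and 0.530 CPM with NT+GV, from 94, 126 and 120 counts against 36, 27 and 20. Endo libraries held 1.48, 1.03 and 0.838 CPM with SPM+GV, against 0.437, 0.404 and 0.345 CPM with NT+GV. VK2 libraries held 1.84, 1.95 and 2.27 CPM with SPM+GV, against 1.10, 0.938 and 0.885 CPM with NT+GV. The groups did not overlap, and the log2 fold changes were 2.28 ± 0.24 in Ecto (adjusted p = 9.06e-09), 1.51 ± 0.42 in Endo (adjusted p = 0.00457) and 1.11 ± 0.28 in VK2 cells (adjusted p = 0.00102).

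EP300 held 86.3, 119.6 and 95.7 CPM in Ecto SPM+GV libraries, against 40.7, 48.01 and 44.9 CPM in NT+GV libraries. In Endo cells it held 105, 117 and 106 CPM with SPM+GV, against 71.6, 68.4 and 66.4 CPM with NT+GV. In VK2 cells it held 116, 130.2 and 119.8 CPM with SPM+GV, against 78.9, 75.7 and 72.7 CPM with NT+GV. Without overlap in any line, EP300 rose by 1.23 ± 0.13 in Ecto (adjusted p = 1.2e-07), 0.68 ± 0.04 in Endo (adjusted p = 1.15e-13) and 0.75 ± 0.04 in VK2 cells (adjusted p = 1.71e-15).

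**Figure D3:**
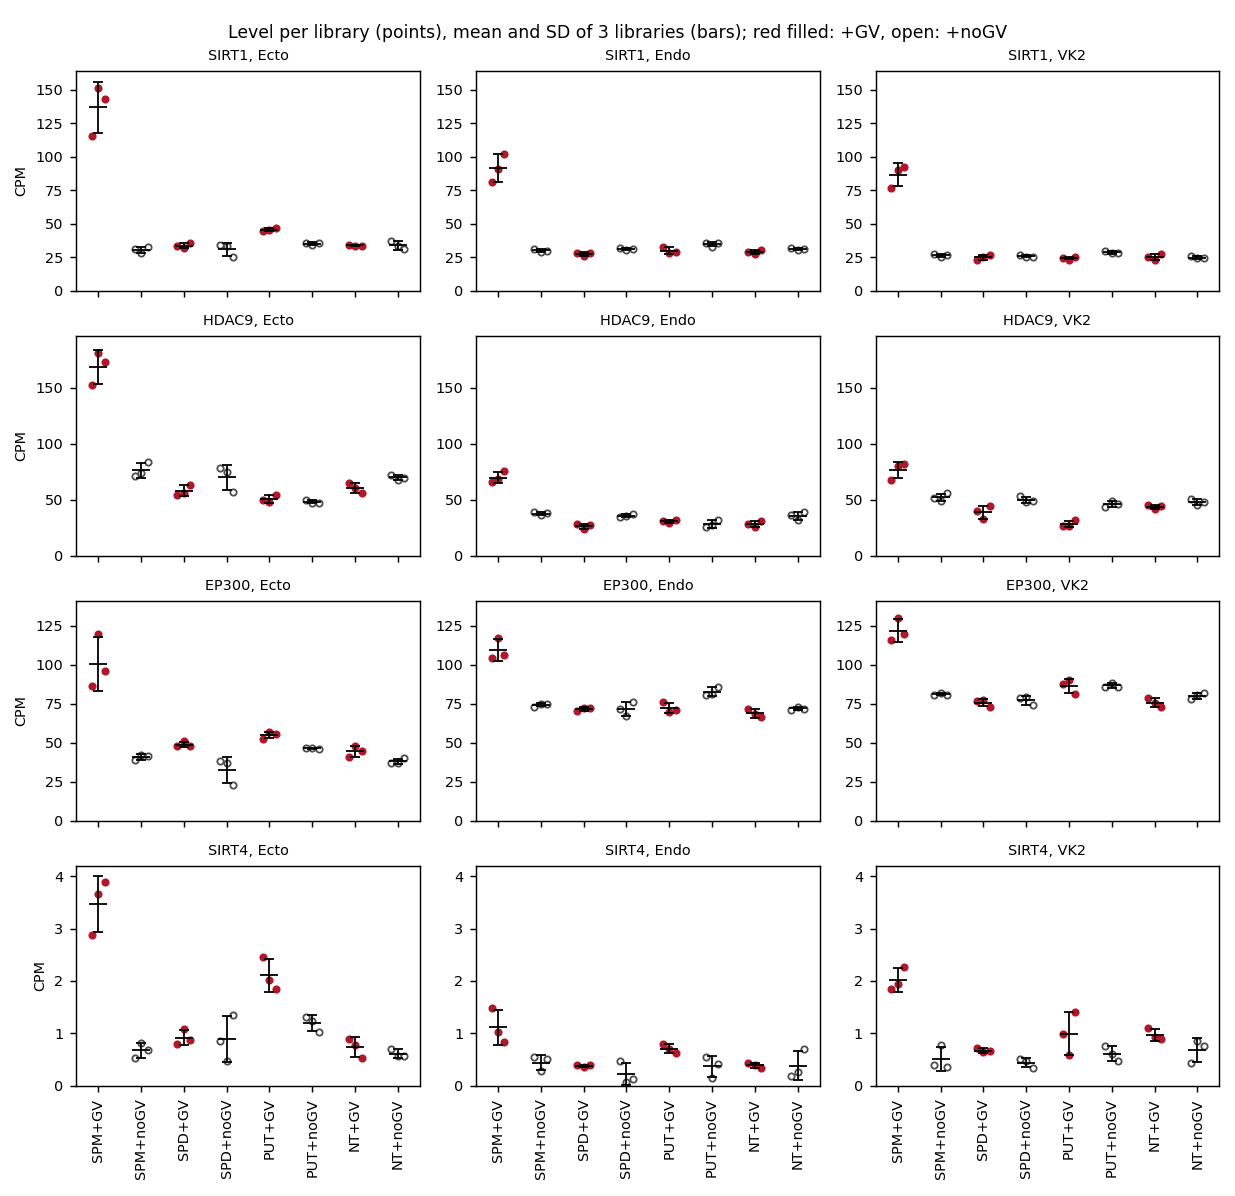
CPM of SIRT1, HDAC9, EP300 and SIRT4 in each library of each line, with the mean and SD of 3 libraries, red filled points for cells with G. vaginalis and open points for cells without. The SPM+GV groups lie above the NT+GV groups for each gene in each line, while the spermine groups without bacteria lie near the NT+noGV groups.

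The promoters of HDAC9, SIRT1 and SIRT4 are shown because these are the genes whose transcripts rose at least 2-fold in more than 1 line. Each window runs from 250 bases before to 50 bases after the RefSeq start on build GRCh38.p14, read 5′ to 3′ on the gene's strand, with motif matches in capitals. The HDAC9 window (chr7:18495499-18495798, + strand) holds an AP-1 match, the SIRT1 window (chr10:67884406-67884705, + strand) holds 1 NF-kB and 2 EGR matches, and the SIRT4 window (chr12:120302071-120302370, + strand) holds 1 NF-kB match.
HDAC9: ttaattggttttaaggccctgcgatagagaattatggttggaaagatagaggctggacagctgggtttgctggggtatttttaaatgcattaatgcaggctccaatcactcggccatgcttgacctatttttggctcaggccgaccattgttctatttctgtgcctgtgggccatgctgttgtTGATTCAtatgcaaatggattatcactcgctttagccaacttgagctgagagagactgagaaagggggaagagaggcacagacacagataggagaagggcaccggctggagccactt
SIRT1: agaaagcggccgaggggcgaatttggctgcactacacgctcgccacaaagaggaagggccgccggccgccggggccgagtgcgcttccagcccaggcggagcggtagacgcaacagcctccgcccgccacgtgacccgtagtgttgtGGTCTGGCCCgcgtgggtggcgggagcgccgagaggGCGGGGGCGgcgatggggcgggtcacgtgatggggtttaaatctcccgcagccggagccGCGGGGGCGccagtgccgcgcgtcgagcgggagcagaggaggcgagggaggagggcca
SIRT4: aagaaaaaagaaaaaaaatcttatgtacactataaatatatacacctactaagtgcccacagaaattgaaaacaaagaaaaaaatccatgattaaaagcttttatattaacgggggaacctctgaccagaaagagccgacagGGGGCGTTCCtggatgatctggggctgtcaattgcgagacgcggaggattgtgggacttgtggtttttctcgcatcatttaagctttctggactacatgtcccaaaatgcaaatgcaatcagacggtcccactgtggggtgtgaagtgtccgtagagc
The GC content of these windows was 47.3% for HDAC9, 72.7% for SIRT1 and 42.3% for SIRT4, and none of the motifs searched was found in all 3.

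RefSeq promoter windows of 300 bases were used for 36 members, with none for KAT6A, HDAC5, KAT8 and SIRT7. Windows on chromosome 8, where KAT6A lies, were left out for the members but not for all promoters. On either strand, an AP-1 motif (TGANTCA) was found in 3 of the 36, namely HDAC9, KDM4C and KDM6A (8.33%), and in 7.71% of all 35116 promoters. An EGR motif (GCGTGGGCG or GCGGGGGCG) was found in SIRT1, EP300 and KAT2B (8.33%), and in 5.77% of all promoters. The looser NF-kB motif (GGG, any 5 bases, then CC) was found in 30 of 36 (83.3%), and in 58.7% of all promoters. A cyclic AMP response element (TGACGTCA) and the SRF motif were found in none of the 36, and in 1.85% and 1.29% of all promoters. These counts describe letters in the windows and not bound sites. Each member had 1 window, the one nearest the start of its MANE Select transcript, whereas all windows at hand were counted for the background. GC content was not matched between them, so the shares are not of like sets.

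Among the other genes that rose in all 3 lines, KDM6B rose by 0.93 ± 0.06 (Ecto), 0.61 ± 0.04 (Endo) and 0.60 ± 0.06 (VK2). Its X-linked paralog KDM6A rose by 0.47 ± 0.10 (Ecto), 0.44 ± 0.05 (Endo) and 0.72 ± 0.04 (VK2). In VK2 cells KDM6A held 71.4, 73.97 and 71.3 CPM with SPM+GV, against 46.4, 46 and 45.2 CPM with NT+GV. In Endo cells it held 69.7, 71.4 and 69.2 CPM with SPM+GV, against 52.9, 53.2 and 50.4 CPM with NT+GV. In Ecto cells it held 105, 125 and 107 CPM with SPM+GV, against 97.7, 76.4 and 78.3 CPM with NT+GV. KDM6A groups did not overlap in any line, and the Ecto SPM+GV libraries also lay below the NT+noGV libraries given above. CREBBP rose by 0.54 ± 0.10 (Ecto), 0.43 ± 0.04 (Endo) and 0.46 ± 0.05 (VK2). KAT6A, an acetyltransferase of the MYST family, rose by 0.54 ± 0.13 (Ecto), 0.27 ± 0.04 (Endo) and 0.38 ± 0.05 (VK2). KDM2A, a demethylase that binds CpG islands, rose by 0.63 ± 0.06 (Ecto), 0.37 ± 0.03 (Endo) and 0.45 ± 0.04 (VK2), and KDM5B, which erases the methyl mark of active promoters, rose by 0.50 ± 0.07 (Ecto), 0.38 ± 0.03 (Endo) and 0.36 ± 0.04 (VK2). KDM4A rose least, by 0.23 ± 0.05 (Ecto), 0.12 ± 0.04 (Endo) and 0.23 ± 0.04 (VK2), and its Endo call was lost without NT+GV replicate 2 (adjusted p = 0.189), NT+GV replicate 3 (0.143) or SPM+GV replicate 2 (0.299).

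HDAC6, the cytoplasmic deacetylase of tubulin, fell in each line. Its Ecto libraries held 20.3, 19.4 and 20.5 CPM with SPM+GV, against 29.98, 28.4 and 26.9 CPM with NT+GV. Endo libraries held 27.3, 27.7 and 27.7 CPM with SPM+GV, against 39.8, 40.2 and 40.2 CPM with NT+GV. VK2 libraries held 28.7, 29.3 and 28.04 CPM with SPM+GV, against 49.7, 55.3 and 49.2 CPM with NT+GV. No groups overlapped, and HDAC6 fell by 0.45 ± 0.06 in Ecto (adjusted p = 1.78e-07), by 0.53 ± 0.05 in Endo (adjusted p = 5.18e-10) and by 0.77 ± 0.06 in VK2 cells (adjusted p = 1.65e-12). HDAC11, the class IV enzyme, which removes fatty acyl groups from lysine, fell by 0.65 ± 0.08 (Ecto), 0.54 ± 0.09 (Endo) and 0.31 ± 0.09 (VK2). SIRT5 fell by 0.30 ± 0.07 (Ecto), 0.26 ± 0.06 (Endo) and 0.43 ± 0.07 (VK2). HDAC5 fell by 0.18 ± 0.07 (Ecto), 0.15 ± 0.05 (Endo) and 0.56 ± 0.07 (VK2). Its Ecto call was lost without NT+GV replicate 3 (adjusted p = 0.0677) or SPM+GV replicate 1 (0.178), and its Endo call without NT+GV replicate 1 (adjusted p = 0.0682) or SPM+GV replicate 1 (0.101).

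**Figure D4:**
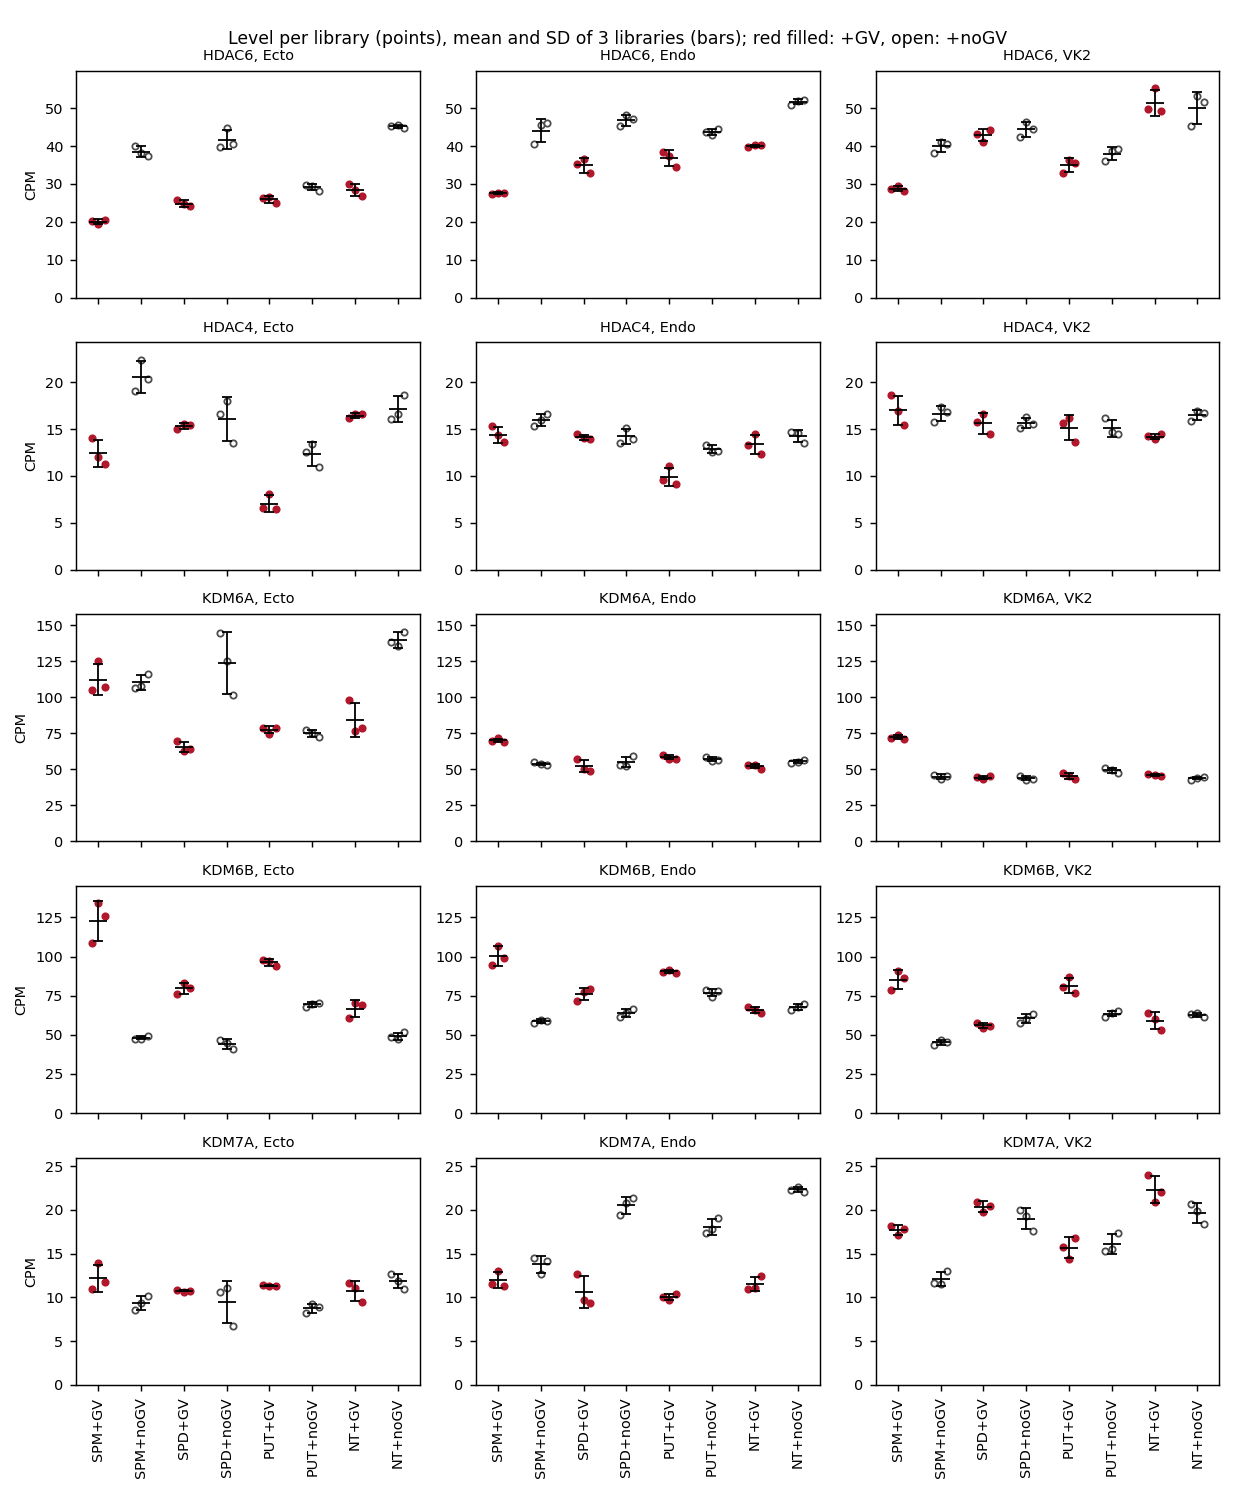
CPM of HDAC6, HDAC4, KDM6A, KDM6B and KDM7A in each library of each line, with the mean and SD of 3 libraries, red filled points for cells with G. vaginalis and open points for cells without. HDAC6 is lower with SPM+GV than with NT+GV in each line, HDAC4 is lower with PUT+GV than with NT+GV in Ecto and Endo cells, and KDM7A is lower with NT+GV than with NT+noGV in Endo cells.

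Some genes moved in opposite directions between lines. HDAC4, a class IIa deacetylase, held 14.01, 11.98 and 11.2 CPM in Ecto SPM+GV libraries, against 16.2, 16.6 and 16.6 CPM in NT+GV libraries (-0.36 ± 0.10, adjusted p = 0.00435). In VK2 cells it held 18.6, 16.9 and 15.5 CPM with SPM+GV, against 14.2, 13.9 and 14.5 CPM with NT+GV (0.33 ± 0.07, adjusted p = 0.000289). In Endo cells it held 15.3, 14.4 and 13.6 CPM with SPM+GV, against 13.3, 14.5 and 12.4 CPM with NT+GV (0.12 ± 0.07, no call). The groups were apart in Ecto and VK2 cells and overlapped in Endo cells, and the difference of the Ecto response from the VK2 response was -0.67 ± 0.12 (adjusted p = 7.66e-06). KDM2B, which recruits a Polycomb complex to CpG islands, fell by 0.27 ± 0.06 in Ecto and rose by 0.29 ± 0.05 in VK2 cells, with a difference of -0.55 ± 0.07 (adjusted p = 8.39e-09). KDM4C rose by 0.62 ± 0.06 in Ecto and 0.26 ± 0.05 in Endo cells, beside 0.04 ± 0.06 in VK2 cells (no call), and the Ecto response exceeded that of VK2 cells by 0.59 ± 0.08 (adjusted p = 2.23e-08). EP300 rose more in Ecto than in Endo (difference 0.51 ± 0.12, adjusted p = 0.000608) and VK2 cells (0.49 ± 0.12, adjusted p = 0.0007). HDAC9 rose more in Ecto than in VK2 cells (0.69 ± 0.13, adjusted p = 4.19e-05).

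The response to spermine differed for 15 members between Ecto and Endo (37.5%, where 25.8% of all genes did), with 7 higher and 8 lower in Ecto, or 8 and 2 when libraries were scaled by DESeq2's size factors. It differed for 19 between Ecto and VK2 (47.5%, where 31.6% did). It differed for 10 between Endo and VK2 cells (25%, where 24.6% did), with 9 higher and 1 lower in Endo, or 4 and 2 with size factors.

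HDAC10, the enzyme with a known polyamine substrate, changed little with spermine. Its Ecto libraries held 6.49, 6.38 and 7.37 CPM with SPM+GV, against 8.11, 8.63 and 8.14 CPM with NT+GV (-0.25 ± 0.10, adjusted p = 0.0398). The groups did not overlap, but the call was lost without NT+GV replicate 2 (adjusted p = 0.103), NT+GV replicate 3 (0.0512), SPM+GV replicate 1 (0.118) or SPM+GV replicate 2 (0.145). In Endo cells HDAC10 held 15.1, 17.97 and 14.9 CPM with SPM+GV, against 15.3, 16.9 and 16.4 CPM with NT+GV (-0.01 ± 0.09, no call). In VK2 cells it held 6.66, 10.3 and 8.19 CPM with SPM+GV, against 8.82, 8.59 and 8.98 CPM with NT+GV (-0.01 ± 0.11, no call), and the groups overlapped in both of these lines. Putrescine responses were not tested between lines. With putrescine HDAC10 rose in Ecto cells with bacteria and fell in Endo and VK2 cells without, so line and bacteria both differed. It held 10.3, 11.1 and 9.29 CPM in Ecto PUT+GV libraries, against 8.11, 8.63 and 8.14 CPM in NT+GV libraries, and rose by 0.36 ± 0.10 (adjusted p = 0.00271) without overlap, whereas its PUT+GV values in Endo (0.09 ± 0.09) and VK2 cells (-0.09 ± 0.11) were not called. Without bacteria it held 11.5, 12.4 and 10.2 CPM in Endo PUT+noGV libraries, against 13.6, 14.8 and 14.5 CPM in NT+noGV libraries, and fell by 0.33 ± 0.10 without overlap, a call lost without PUT+noGV replicate 3 (adjusted p = 0.0687). Its Ecto value without bacteria was 0.19 ± 0.10 (no call). In VK2 cells HDAC10 held 5.62, 6.72 and 5.31 CPM in PUT+noGV libraries, against 7.72, 8.63 and 8.81 CPM in NT+noGV libraries, and fell by 0.49 ± 0.11 (adjusted p = 0.000605) without overlap.

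KDM1A held 133, 125 and 119.9 CPM in Ecto SPM+GV libraries, against 158, 159 and 146 CPM in NT+GV libraries (-0.25 ± 0.05, adjusted p = 8.09e-05). In Endo cells it held 152, 149 and 157 CPM with SPM+GV, against 169.6, 165 and 164 CPM with NT+GV (-0.11 ± 0.04, adjusted p = 0.0127), a call lost without NT+GV replicate 1 (adjusted p = 0.058) or SPM+GV replicate 1 (0.0581). In VK2 cells it held 191, 170.3 and 175 CPM with SPM+GV, against 193, 187 and 194 CPM with NT+GV (-0.04 ± 0.04, no call). The KDM1A groups were apart in Ecto and Endo cells and overlapped in VK2 cells. HDAC8, a class I enzyme that deacetylates cohesin, held 16.5, 14.8 and 15.8 CPM in VK2 SPM+GV libraries, against 12.5, 13.3 and 13.5 CPM in NT+GV libraries (0.33 ± 0.06, adjusted p = 4.53e-05), without overlap. In Ecto cells it held 18.8, 17.96 and 17.2 CPM with SPM+GV, against 18.7, 18.5 and 16.6 CPM with NT+GV (0.05 ± 0.06, no call). In Endo cells it held 17.03, 16.6 and 17.4 CPM with SPM+GV, against 15.6, 16.2 and 15.03 CPM with NT+GV (0.14 ± 0.06, no call).

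Spermine without bacteria (SPM+noGV vs NT+noGV) changed fewer of these genes. In Ecto cells 4 rose and 6 fell, where 11.3% and 12.2% of all genes did, and these 10 calls became 6 without SPM+noGV replicate 2 and 17 when only the groups compared were fitted. In Endo cells 2 rose and 8 fell, where 8.02% and 10.1% did, and in VK2 cells 10 rose and 7 fell, where 17.4% and 15.6% did. SIRT1 held 31.04, 28.6 and 33.1 CPM in Ecto SPM+noGV libraries, against 37.4, 33.7 and 31.1 CPM in NT+noGV libraries, which overlapped. Its log2 fold changes were -0.13 ± 0.10 (Ecto), -0.04 ± 0.07 (Endo) and 0.12 ± 0.07 (VK2), none of them called. HDAC9 (0.14 ± 0.09, 0.07 ± 0.09 and 0.13 ± 0.10), EP300 (0.11 ± 0.13, 0.04 ± 0.05 and 0.03 ± 0.04) and SIRT4 (0.15 ± 0.28, 0.18 ± 0.47 and -0.41 ± 0.33) were not called in Ecto, Endo or VK2 cells either. HDAC2, a class I partner of HDAC1, rose in all 3 lines, and HDAC5 and HDAC6 fell in all 3. The share of all genes called in all 3 lines was not counted for spermine without bacteria. HDAC5 fell by 0.68 ± 0.07 (Ecto), 0.39 ± 0.05 (Endo) and 0.60 ± 0.06 (VK2), and HDAC6 by 0.22 ± 0.05 (Ecto), 0.24 ± 0.05 (Endo) and 0.31 ± 0.06 (VK2). KDM7A held 11.7, 11.5 and 13.1 CPM in VK2 SPM+noGV libraries, against 20.7, 19.9 and 18.4 CPM in NT+noGV libraries, and fell by 0.68 ± 0.07 there and by 0.69 ± 0.08 in Endo cells. KDM6B, without bacteria, fell by 0.22 ± 0.04 in Endo cells and by 0.46 ± 0.06 in VK2 cells.

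The difference between the spermine response with and without bacteria was tested as an interaction. It was positive for 14 members and negative for 11 in Ecto cells, where 19% and 17.3% of all genes were so called. In Endo cells it was positive for 15 and negative for 6, where 14.1% and 10.2% were called, and in VK2 cells positive for 15 and negative for 9, where 17% and 21.9% were called. SIRT1 had interactions of 2.19 ± 0.13 (Ecto), 1.70 ± 0.09 (Endo) and 1.71 ± 0.09 (VK2), HDAC9 of 1.40 ± 0.13 (Ecto), 1.24 ± 0.13 (Endo) and 0.72 ± 0.14 (VK2) and EP300 of 1.11 ± 0.18 (Ecto), 0.64 ± 0.06 (Endo) and 0.72 ± 0.06 (VK2). SIRT4 was called in Ecto (2.13 ± 0.37) and VK2 cells (1.52 ± 0.43), whereas its value in Endo cells, 1.33 ± 0.64, did not pass the test (adjusted p = 0.136). KDM6B had interactions of 0.95 ± 0.09 (Ecto), 0.83 ± 0.06 (Endo) and 1.06 ± 0.08 (VK2), and KDM7A of 0.56 ± 0.17 (Ecto), 0.76 ± 0.12 (Endo) and 0.41 ± 0.10 (VK2). KDM7A was not among the members that rose in all 3 lines with SPM+GV, and without bacteria it fell with spermine in Endo and VK2 cells. KDM6A had interactions of 0.79 ± 0.14 (Ecto), 0.48 ± 0.07 (Endo) and 0.67 ± 0.06 (VK2). HDAC2, HDAC6, KDM1A and KDM1B were the members with a negative interaction in all 3 lines, for KDM1A at -0.36 ± 0.07 (Ecto), -0.18 ± 0.05 (Endo) and -0.26 ± 0.05 (VK2). The share of all genes with this interaction called in all 3 lines was not counted. The Ecto value of HDAC6, -0.24 ± 0.08, was not called without NT+GV replicate 1 (adjusted p = 0.0529) or SPM+GV replicate 2 (0.0569).

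**Figure D5:**
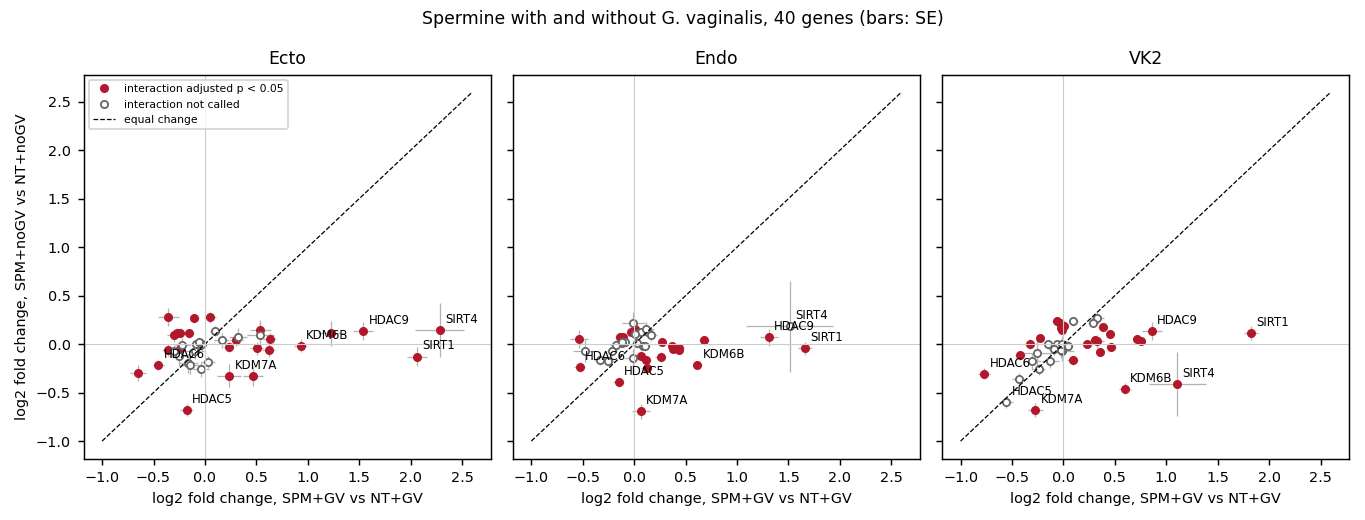
Log2 fold change with spermine in the presence of G. vaginalis (x axis, SPM+GV vs NT+GV) against that in its absence (y axis, SPM+noGV vs NT+noGV) for the 40 genes in each line, with bars of 1 SE and red points where the interaction had an adjusted p under 0.05. SIRT1 lies far to the right near y = 0 in each line, at 2.06, 1.66 and 1.82 on the x axis, while HDAC5 lies below 0 on both axes.

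Spermidine lacks an aminopropyl group of spermine and was given at the same dose, so these compounds could be compared directly in 40 genes per line, with p-values adjusted over all genes. In Ecto cells 18 members were higher and 15 lower with SPM+GV than with SPD+GV, where 27.6% and 26.2% of all genes were. In Endo cells 13 were higher and 10 lower, where 23.4% and 21.2% were, and in VK2 cells 15 were higher and 10 lower, where 25.1% and 27.5% were. SIRT1 held 33.6, 32.3 and 35.8 CPM in Ecto, 28.5, 25.9 and 28.3 CPM in Endo and 23.3, 25.1 and 26.6 CPM in VK2 SPD+GV libraries, all below the SPM+GV libraries given above. The log2 differences of SPM+GV over SPD+GV were 2.05 ± 0.09 (Ecto), 1.73 ± 0.06 (Endo) and 1.86 ± 0.06 (VK2) for SIRT1. They were 1.58 ± 0.09 (Ecto), 1.40 ± 0.09 (Endo) and 1.04 ± 0.10 (VK2) for HDAC9, 1.95 ± 0.23 (Ecto), 1.53 ± 0.42 (Endo) and 1.64 ± 0.29 (VK2) for SIRT4 and 1.08 ± 0.13 (Ecto), 0.61 ± 0.04 (Endo) and 0.75 ± 0.04 (VK2) for EP300. KDM6A (0.82 ± 0.10, 0.43 ± 0.05 and 0.77 ± 0.04 in these lines) and KDM6B (0.66 ± 0.06, 0.40 ± 0.04 and 0.67 ± 0.06) were also higher with spermine. HDAC6 was lower with spermine, at -0.27 ± 0.06 (Ecto), -0.34 ± 0.05 (Endo) and -0.51 ± 0.06 (VK2). The differences that were not called, 7 for Ecto, 17 for Endo and 15 for VK2 cells, had approximate 95% intervals that reached from -0.34 to 0.45, from -0.30 to 0.35 and from -0.38 to 0.34 on the log2 scale. SIRT6, KAT6B and KDM7A were not called in any line. The intervals of KAT6B were -0.24 to 0.14 for Ecto, -0.01 to 0.20 for Endo and -0.18 to 0.05 for VK2 cells. Those of KDM7A were -0.01 to 0.45 for Ecto, 0.0084 to 0.35 for Endo and -0.27 to 0.0038 for VK2 cells, and those of SIRT6 were -0.23 to 0.00059 for Ecto, 0.0058 to 0.23 for Endo and -0.10 to 0.20 for VK2 cells.

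Spermidine itself changed few members. With bacteria (SPD+GV vs NT+GV) 1 rose and 2 fell in Ecto cells, where 6.53% and 6.6% of all genes did. In Endo cells 2 rose and 3 fell, where 5.22% and 8.71% did, and in VK2 cells 2 rose and 3 fell, where 4.84% and 7.87% did. The Ecto count of 3 became 1 without NT+GV replicate 1, SPD+GV replicate 2 or SPD+GV replicate 3. The Endo count of 5 became 3 without NT+GV replicate 2 or SPD+GV replicate 2. The VK2 count of 5 became 2 without NT+GV replicate 1, 8 without NT+GV replicate 3, and 3 without NT+GV replicate 2, SPD+GV replicate 2 or SPD+GV replicate 3. HDAC6 was the member that fell in all 3 lines, by 0.18 ± 0.05 (Ecto), 0.19 ± 0.05 (Endo) and 0.26 ± 0.06 (VK2), and its Ecto call was lost without NT+GV replicate 1 (adjusted p = 0.17), NT+GV replicate 2 (0.0634), SPD+GV replicate 2 (0.0965) or SPD+GV replicate 3 (0.0998). The share of all genes called in all 3 lines was not counted for SPD+GV. KDM6B rose by 0.27 ± 0.06 in Ecto and 0.21 ± 0.04 in Endo cells, the Ecto call being lost without NT+GV replicate 1 (adjusted p = 0.0722). KDM6A held 69.4, 62.9 and 64 CPM in Ecto SPD+GV libraries, against 97.7, 76.4 and 78.3 CPM in NT+GV libraries, and fell by 0.35 ± 0.10 without overlap. The call was lost without NT+GV replicate 1 (adjusted p = 0.185), SPD+GV replicate 2 (0.107) or SPD+GV replicate 3 (0.0806), and the change was -0.23 without the first of these libraries, the highest of its group. Without bacteria (SPD+noGV vs NT+noGV) edgeR called 0 of the 40 in each line, where it called 0.303%, 0.181% and 0.46% of all genes in Ecto, Endo and VK2 cells. DESeq2 also called 0 in each line, and 13, 5 and 4 members had an unadjusted p under 0.05, while the edgeR count in Ecto was 7 with no filter on low counts. The share of all genes with an unadjusted p under 0.05 was not counted, so the 13, 5 and 4 have no background. Leaving out the third Ecto SPD+noGV library left the Ecto count at 0.

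Putrescine was given at 4 mM, against 400 µM of the other polyamines, so its values stand beside theirs without a direct comparison. With bacteria (PUT+GV vs NT+GV) 15 members rose and 11 fell in Ecto cells, where 31.5% and 24.9% of all genes did. With DESeq2's size factors the Ecto split was 11 higher and 16 lower. In Endo cells 8 rose and 12 fell, where 27.9% and 28.2% did, and in VK2 cells 7 rose and 15 fell, where 29% and 31.4% did. SIRT7, KDM2A and KDM6B rose in all 3 lines (7.5%, where 13.8% of all genes did). HDAC3, the deacetylase of the NCoR complex, SIRT2, SIRT3, SIRT5, KDM1B and KDM4C fell in all 3 (15%, where 15.8% of all genes did). The leukocyte markers that passed the filter, 2 of 6 in each line, rose in this comparison. These were CSF1R and CD14, and the list summed to at most 30.8 CPM, while PTPRC, the general leukocyte marker, stayed at or below 0.211 CPM in every library. Summed fibroblast markers also had higher medians with PUT+GV than with NT+GV, 49.5 against 25.35 CPM (Ecto), 65.2 against 40.6 (Endo) and 65.6 against 38.4 (VK2). So did endothelial markers, at 3.93 against 2.52 CPM (Ecto), 2.38 against 1.32 (Endo) and 2.38 against 0.79 (VK2). These sums were not tested. The fibroblast sum was mainly COL1A1, whose highest level over all libraries of a line was 51.05 CPM (Ecto), 69.4 (Endo) and 60.3 (VK2). DCN reached 6.39 CPM (VK2), and every other fibroblast maximum was at or below 0.59 CPM. The higher fibroblast medians therefore do not show a rise of that list as a whole.

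In Ecto cells HDAC4 fell most with PUT+GV, whereas SIRT5 did in Endo and SIRT2 in VK2 cells. Ecto PUT+GV libraries held 6.56, 8.10 and 6.47 CPM of HDAC4, against 16.2, 16.6 and 16.6 CPM in NT+GV libraries (-1.17 ± 0.11, adjusted p = 8.53e-10). Endo PUT+GV libraries held 9.57, 11.02 and 9.19 CPM, against 13.3, 14.5 and 12.4 CPM in NT+GV libraries (-0.42 ± 0.07, adjusted p = 9.66e-06). VK2 PUT+GV libraries held 15.6, 16.2 and 13.6 CPM, against 14.2, 13.9 and 14.5 CPM in NT+GV libraries (0.10 ± 0.07, no call). The groups were apart in Ecto and Endo cells and overlapped in VK2 cells. SIRT4 held 2.46, 2.02 and 1.85 CPM in Ecto PUT+GV libraries, against 0.901, 0.774 and 0.530 CPM in NT+GV libraries, and rose by 1.56 ± 0.24 without overlap. Its values in Endo (0.83 ± 0.44) and VK2 cells (0.03 ± 0.29) did not pass the test. SIRT7 rose by 0.79 ± 0.07 (Ecto), 0.37 ± 0.05 (Endo) and 0.24 ± 0.05 (VK2), and KDM6B by 0.58 ± 0.06 (Ecto), 0.46 ± 0.04 (Endo) and 0.47 ± 0.06 (VK2).

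SIRT2 fell with putrescine by 0.38 ± 0.08 (Ecto), 0.44 ± 0.06 (Endo) and 0.75 ± 0.05 (VK2), SIRT5 by 0.58 ± 0.07 (Ecto), 0.68 ± 0.06 (Endo) and 0.45 ± 0.07 (VK2) and SIRT3 by 0.27 ± 0.08 (Ecto), 0.26 ± 0.11 (Endo) and 0.27 ± 0.08 (VK2), where the Endo call of SIRT3 was lost without NT+GV replicate 1 (adjusted p = 0.163), NT+GV replicate 2 (0.0999) or PUT+GV replicate 1 (0.142). SIRT1 held 44.7, 45.4 and 46.8 CPM in Ecto PUT+GV libraries, against 34.4, 33.6 and 33.8 CPM in NT+GV libraries, and rose by 0.48 ± 0.09 without overlap. Its values were 0.05 ± 0.07 in Endo and -0.06 ± 0.07 in VK2 cells (no call). HDAC9 held 26.7, 26.6 and 32 CPM in VK2 PUT+GV libraries, against 45.5, 42.1 and 44.5 CPM in NT+GV libraries, and fell by 0.63 ± 0.10 without overlap. In VK2 cells HDAC6 fell by 0.55 ± 0.06, KDM7A by 0.51 ± 0.07 and KAT5 by 0.46 ± 0.05. HDAC5 rose by 0.37 ± 0.06 in Ecto and 0.54 ± 0.05 in Endo cells, and KDM4A by 0.63 ± 0.05 in Ecto cells.

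Without bacteria (PUT+noGV vs NT+noGV) 7 members rose and 14 fell in Ecto cells, where 23.9% and 22.9% of all genes did. In Endo cells 14 rose and 8 fell, where 15.6% and 16.3% did, and in VK2 cells 11 rose and 10 fell, where 22% and 23% did. SIRT5 fell by 0.56 ± 0.07 (Ecto), 0.59 ± 0.06 (Endo) and 0.54 ± 0.06 (VK2). KDM2A rose by 0.39 ± 0.06 (Ecto), 0.33 ± 0.03 (Endo) and 0.36 ± 0.04 (VK2). KDM6A held 77.5, 74.9 and 72.6 CPM in Ecto PUT+noGV libraries, against 138, 135 and 146 CPM in NT+noGV libraries, and fell by 0.88 ± 0.10 without overlap. HDAC4 fell by 0.45 ± 0.10 in Ecto cells, and the interaction of putrescine with bacteria was -0.72 ± 0.15 for it (adjusted p = 0.000581). That interaction was called for 17 members in Ecto, where 26.4% of all genes were called, for 19 in Endo, where 34.8% were, and for 16 in VK2 cells, where 27.6% were. KDM6A had an interaction of 0.80 ± 0.14 in Ecto cells, where PUT+GV libraries held 78.6, 74.5 and 78.9 CPM.

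Across the 40 genes, Pearson's r of the log2 fold changes with SPM+GV was 0.948 between Ecto and Endo, 0.848 between Ecto and VK2 and 0.912 between Endo and VK2 cells. With PUT+GV it was 0.818, 0.358 and 0.489 for these pairs, with SPD+GV 0.48, -0.13 and 0.235, and with G. vaginalis alone 0.533, 0.221 and 0.263. These values describe 40 genes that are not independent of each other, measured in lines that share no libraries. The SPM+GV values include the large rises of SIRT1, SIRT4, HDAC9 and EP300, which weigh heavily in r. Neither r without these genes nor r over all genes was computed.

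The 11 genes that rose in all 3 lines with SPM+GV had MANE Select transcripts of 1217 to 10790 bases (median 7386) and a median GC content of 49.8%. The 4 that fell had transcripts of 2819 to 5319 bases (median 4341) and a median GC content of 58.9%. The medians were 4512 bases and 51.2% over all 40 members, and 2955 bases and 49% over 19061 MANE Select transcripts. Among the members, Spearman's rho between the SPM+GV log2 fold change and transcript length was 0.214 (Ecto), 0.259 (Endo) and 0.24 (VK2), and rho with GC content was -0.319, -0.254 and -0.243. Over all genes it was -0.0545, -0.0035 and 0.0178 for length and -0.103, -0.118 and -0.111 for GC content. These are descriptions across genes, which are not independent replicates.

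Genes that work with these enzymes were examined as further lists, whose counts stand beside a background in which 28.5% of all genes rose and 27.5% fell with SPM+GV in Ecto, 21.9% and 21.1% in Endo and 27.9% and 30.3% in VK2 cells. Of 27 subunits of acetyltransferase complexes, 10 rose and 5 fell with SPM+GV in Ecto, 12 rose and 4 fell in Endo, and 11 rose and 6 fell in VK2 cells. The list medians were 0.03, 0.12 and 0.05, beside medians of all genes of -0.02, -0.01 and -0.02. EPC1 and EPC2 are enhancer of polycomb subunits of the NuA4/TIP60 complex. EPC1 rose by 2.10 ± 0.08 (Ecto), 1.30 ± 0.05 (Endo) and 1.25 ± 0.06 (VK2), and EPC2 by 1.30 ± 0.08 (Ecto), 0.76 ± 0.05 (Endo) and 0.76 ± 0.06 (VK2). Of 10 acetyl-lysine readers, 4 rose and 5 fell in Ecto, 4 rose and 3 fell in Endo, and 4 rose and 4 fell in VK2 cells. BRD2, a bromodomain protein of active chromatin, rose by 1.35 ± 0.06 (Ecto), 1.26 ± 0.04 (Endo) and 1.87 ± 0.04 (VK2). Of 13 further acetyltransferases and demethylases, 6, 6 and 8 rose and 3, 4 and 5 fell in Ecto, Endo and VK2 cells, and JMJD1C among them rose by 1.69 ± 0.14 (Ecto), 0.77 ± 0.05 (Endo) and 0.90 ± 0.05 (VK2). Of 24 deacetylase complex subunits, 6, 7 and 9 rose and 7, 7 and 10 fell, and of 23 histone lysine methyltransferases, 7, 6 and 11 rose and 7, 8 and 6 fell.

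A list of 10 genes of acetyl-CoA and NAD metabolism held ACLY, ACSS2, PDHA1, NAMPT, NMNAT1, NAPRT, NNMT, the mitochondrial citrate carrier SLC25A1, and IDH1 and IDH2, which make oxoglutarate. Of these, 0 rose and 6 fell with SPM+GV in Ecto cells, 1 rose and 6 fell of 9 tested in Endo cells, and 0 rose and 7 fell in VK2 cells, where 27.5%, 21.1% and 30.3% of all genes fell. The list medians were -0.26, -0.26 and -0.30. With PUT+GV 0 rose in each line, and 10 of 10, 9 of 9 and 8 of 10 fell, where 24.9%, 28.2% and 31.4% of all genes fell, with medians of -0.43, -0.47 and -0.52 beside medians of all genes of 0.07, 0.03 and 0.01. ACSS2, which makes acetyl-CoA from acetate, fell with SPM+GV by 0.48 ± 0.05 (Ecto), 0.55 ± 0.05 (Endo) and 0.97 ± 0.04 (VK2). With G. vaginalis alone 0 rose and 8 of 10 fell in Ecto, 1 rose and 5 of 9 fell in Endo, and 3 rose and 2 of 10 fell in VK2 cells, where 20.9% and 23.7%, 25.7% and 28.7%, and 13.9% and 12.5% of all genes rose and fell, and ACSS2 fell by 1.64 ± 0.05 (Ecto), 1.18 ± 0.05 (Endo) and 0.27 ± 0.04 (VK2). All comparisons with NT+GV use the same 3 libraries of that group in each line, so their values are not independent of one another.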

How the data were processed

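RNA was measured in 72 libraries from Ecto, Endo and VK2 cells. The authors prepared rRNA-depleted, stranded total RNA-seq libraries (CORALL) and quantified them with Salmon against GENCODE release 44 (GRCh38.p13), and the deposited values are estimated counts per gene, given as whole numbers. Whether molecular identifiers were collapsed is not given in the sources used here. Per library 20152143 to 42767996 counts were available, and the chi-square per degree of freedom between libraries of a group was 2.27 to 42.4, so none was counted as a duplicate.

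Counts were filtered with filterByExpr and scaled by TMM, and edgeR 4.0.16 (R 4.3.3, limma 3.58.1) fitted robust quasi-likelihood models with a mean for each of the 8 groups of a line, or over all 72 libraries for comparisons between lines. Adjusted p-values are Benjamini-Hochberg over all genes tested, and SE is the log2 fold change over the root of F. Intervals are 1.96 SE on either side. The fit was tested on simulated counts. Alternatives were DESeq2 1.42.0, its size factors, no filter on low counts, fitting only the groups compared, a 2-fold minimum, a replicate block and leaving out libraries. CPM by library are given for members that changed at least 2-fold in a comparison with bacteria, and for HDAC10, HDAC4 and EP300. They are also given for the member of each class with the smallest adjusted p-value in SPM+GV vs NT+GV, over the 3 lines. Lack of overlap in the comparison that picked a member is not separate evidence of its change. Of other lists at most 3 genes per comparison were eligible, by smallest p-value, and KDM7A libraries are given for their change with G. vaginalis alone, chosen after their values were seen. The 40 genes, the lists and the markers were chosen with earlier results of these data known. Figures were drawn with matplotlib 3.10.9. Sample groups came from the labels.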

Additional observations from a re-analysis of the deposited data

Results flagged for a closer look

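Of the differences between lines that the report counts, each called by a test of the difference itself in the model over all 72 libraries, those described here are the 6 in which the called responses of a pair of lines went opposite ways or differed at least 2-fold. With G. vaginalis alone, SIRT2 had a log2 fold change of -0.21 in Ecto and 0.15 in VK2 cells, a difference of -0.34 ± 0.09 (adjusted p = 0.00387). The SIRT2 change within Ecto cells was not called without NT+GV replicate 1 (adjusted p = 0.0574), NT+GV replicate 2 (0.0998), NT+GV replicate 3 (0.111), NT+noGV replicate 2 (0.155) or NT+noGV replicate 3 (0.105), and that within VK2 cells was not called without NT+GV replicate 1 (adjusted p = 0.105), NT+GV replicate 2 (0.104), NT+noGV replicate 1 (0.055) or NT+noGV replicate 3 (0.0797). HDAC2 had 0.13 in Endo and -0.17 in VK2 cells, a difference of 0.31 ± 0.05 (adjusted p = 5.97e-06). KDM7A had -0.95 in Endo and 0.20 in VK2 cells, a difference of -1.14 ± 0.13 (adjusted p = 1.53e-10).

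With SPM+GV against NT+GV, HDAC4 had -0.36 in Ecto and 0.33 in VK2 cells, a difference of -0.67 ± 0.12 (adjusted p = 7.66e-06). KDM2B had -0.27 in Ecto and 0.29 in VK2 cells, a difference of -0.55 ± 0.07 (adjusted p = 8.39e-09). SIRT4 had 2.28 in Ecto and 1.11 in VK2 cells, a difference of 1.19 ± 0.43 (adjusted p = 0.0288). The SIRT4 difference was not called when replicate 1, 2 or 3 of every group was left out (adjusted p = 0.0705, 0.09 and 0.127), and its adjusted p was 0.0266 to 0.028 under the other 2 alternatives.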

How the results depend on the processing

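Counts of called members are given here as alternative against main value. With only the groups compared in the fit, SPD+GV gave 6 against 3 for Ecto, 3 against 5 for Endo and 3 against 5 for VK2 cells, SPM+noGV gave 17 against 10 in Ecto, and the interaction of SPD and GV gave 0 against 2 in Ecto cells. With no filter on low counts, SPD+noGV gave 7 against 0 in Ecto, and SPD+GV gave 3 against 5 in Endo and in VK2 cells. DESeq2's size factors gave 1 against 2 for the interaction of SPD and GV in Ecto and 6 against 10 for the response to SPM of Endo over VK2 cells, and DESeq2 gave 1 against 0 for the interaction of SPD and GV in VK2 cells. With a 2-fold change also required, SPM+GV kept 4, 3 and 2 calls in Ecto, Endo and VK2 cells, its interaction 4, 2 and 3, SPM+GV over SPD+GV 4, 3 and 3, and PUT+GV 2, 0 and 0, while G. vaginalis alone, SPD+GV, PUT+noGV, SPM+noGV, the interaction of PUT and GV and that of SPD and GV kept 0. The cause of these shifts was not tested, except that the last setting removes smaller changes by construction. The share of all genes that met the 2-fold requirement was not counted. No called log2 fold change changed sign among the 10 members given by library under the rule above, which do not include KDM7A. With DESeq2's size factors, however, the split of higher and lower calls turned to 11 and 16, against 15 and 11, for PUT+GV in Ecto cells. It turned to 8 and 2, against 7 and 8, for the response to SPM of Ecto over Endo cells. SIRT4 in SPD+noGV Endo cells gave no value with only the groups compared, since it failed the filter there.

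Leaving out replicates, in single libraries or as 1 number of every group, gave counts of 0 to 3 for SPD+GV, 5 to 13 for SPM+noGV, 8 to 18 for the PUT interaction, 0 to 2 for the SPD interaction, 15 to 27 for the SPM interaction and 18 to 33 for SPM+GV over SPD+GV in Ecto cells. In Endo cells they were 2 to 7 for SPD+GV, 6 to 11 for SPM+noGV, 11 to 20 for the PUT interaction and 0 to 4 for the SPD interaction. In VK2 cells they were 3 to 9 for G. vaginalis alone, 2 to 8 for SPD+GV, 12 to 20 for PUT+noGV and 3 to 19 for the PUT interaction. Between lines, responses to G. vaginalis gave 7 to 13 for Ecto and Endo, 7 to 14 for Ecto and VK2 and 7 to 13 for Endo and VK2 cells, and responses to SPM gave 4 to 14, 12 to 19 and 2 to 7.

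Same-numbered libraries of a line shared a weak deviation, with a median correlation of 0.016 for Ecto, 0.027 for Endo and 0.018 for VK2 cells. Between differently numbered libraries it was -0.0089, -0.017 and -0.0097. Most libraries, 16, 21 and 18 of 24, were closest to their own number. The numbers were not taken to pair samples, and the main fits left this shared part out. A replicate block gave 28, 26 and 26 calls for SPM+GV against 27, 25 and 25, left all 42 counts within 1.5 times, and made 10 of 420 changes of the named genes newly called. Of the SPM+GV calls, 20 of 27 for Ecto, 17 of 25 for Endo and 23 of 25 for VK2 cells held under every alternative other than the 2-fold requirement. Fewer held in some other comparisons. For G. vaginalis alone 14 of 18, 16 of 23 and 2 of 10 held, and for PUT+GV 14 of 26, 16 of 20 and 19 of 22. SPD+GV kept 0 of 3, 0 of 5 and 1 of 5, and the PUT interaction 7 of 17, 8 of 19 and 2 of 16. Responses to SPM between lines kept 3 of 15 (Ecto and Endo), 10 of 19 (Ecto and VK2) and 1 of 10 (Endo and VK2). SIRT4 had the lowest level of the set, and its SPM+GV changes had SEs of 0.24, 0.42 and 0.28.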
